A study of Mus musculus with 22 samples.

Results

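The 292 promoter windows described here were those at which SUZ12, which the Polycomb complex PRC2 needs for its activity, was measured at or above 100 CPM in all 4 SUZ12 libraries of mouse neural progenitor cells (NPC) and embryonic stem cells (ESC). They made up 1.19% of the 24467 windows in the deposited table, each of which spans 5000 bp around an annotated transcription start site (TSS). CPM is the count of a window per 1e6 counts of its library over all windows. The windows were chosen on the SUZ12 values themselves, so SUZ12 is given below as a description, without a test, and tests are given only for JARID2, MTF2, H3K27me3 and H3K4me3, whose libraries the choice did not use.

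Protein and histone mark positions were measured by CUT&RUN, where an antibody brings a nuclease to its target and the DNA cut loose nearby is sequenced. NPC were made from C57BL/6 ESC by 72 h in bFGF (10 ng/mL) followed by 48 h in the Hedgehog pathway agonist SAG (500 nM), while ESC were held in serum-free N2B27 medium with LIF at 100 U/mL, the GSK3 inhibitor CHIR99021 at 3 µM and the MEK inhibitor PD0325901 at 1 µM. Cells of both types carry the genotype label untagged, Tir1, and received no other treatment. In each cell type there were 2 libraries, labelled as biological replicates, for each of the 5 antibodies, and 1 for IgG.

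PRC2 places methyl groups on lysine 27 of histone H3, and the trimethylated form, H3K27me3, marks silent developmental genes. JARID2 and MTF2 are accessory subunits that join different forms of the complex, PRC2.2 and PRC2.1, and MTF2 binds unmethylated CpG-rich DNA. H3K4me3 marks promoters that are active or poised, and in ESC it is known to share many promoters of developmental regulators with H3K27me3, the bivalent state.

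CpG content is the sequence feature most often tied to PRC2 recruitment, so the 200 bases upstream of the start site are shown for 6 members on which the results below turn. Capitals mark CG dinucleotides. The sequences are from RefSeq (GRCm38.p6, the same build as mm10), 5′ to 3′ on the strand of the gene. Evx2 (chr2:74659558-74659757, minus strand), Foxd3 (chr4:99656099-99656298, plus strand), Olig2 (chr16:91225350-91225549, plus strand), Hoxa10 (chr6:52234940-52235139, minus strand), Irx3 (chr8:91801655-91801854, minus strand) and Hoxa2 (chr6:52164832-52165031, minus strand) were chosen as examples of the highest SUZ12 signal, of rises in H3K27me3, of the fall in H3K4me3, of the fall in MTF2 and of the rise in H3K4me3.
Evx2: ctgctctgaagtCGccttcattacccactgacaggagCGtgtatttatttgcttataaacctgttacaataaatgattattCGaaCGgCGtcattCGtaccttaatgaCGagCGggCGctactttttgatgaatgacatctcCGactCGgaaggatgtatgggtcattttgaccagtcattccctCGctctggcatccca
Foxd3: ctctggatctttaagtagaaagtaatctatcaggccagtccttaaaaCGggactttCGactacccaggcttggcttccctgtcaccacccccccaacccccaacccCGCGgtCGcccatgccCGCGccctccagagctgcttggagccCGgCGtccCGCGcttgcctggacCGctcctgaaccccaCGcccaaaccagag
Olig2: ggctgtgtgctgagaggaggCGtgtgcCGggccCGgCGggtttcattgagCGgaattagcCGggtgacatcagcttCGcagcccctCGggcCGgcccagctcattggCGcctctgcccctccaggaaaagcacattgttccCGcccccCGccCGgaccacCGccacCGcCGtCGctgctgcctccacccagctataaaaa
Hoxa10: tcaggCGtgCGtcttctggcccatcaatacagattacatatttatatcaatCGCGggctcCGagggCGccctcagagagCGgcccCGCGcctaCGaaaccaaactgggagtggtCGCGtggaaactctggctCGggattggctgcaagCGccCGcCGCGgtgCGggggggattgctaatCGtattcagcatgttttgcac
Irx3: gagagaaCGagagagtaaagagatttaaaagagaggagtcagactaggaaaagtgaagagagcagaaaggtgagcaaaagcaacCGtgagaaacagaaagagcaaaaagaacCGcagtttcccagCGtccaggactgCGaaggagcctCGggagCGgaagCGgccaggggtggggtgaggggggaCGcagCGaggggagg
Hoxa2: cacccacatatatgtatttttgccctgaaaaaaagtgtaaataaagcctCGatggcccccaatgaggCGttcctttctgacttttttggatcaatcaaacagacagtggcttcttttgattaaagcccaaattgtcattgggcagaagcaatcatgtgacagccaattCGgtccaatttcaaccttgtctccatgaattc
Among these 200-base stretches, the CG count ran from 19 at Hoxa10 and 17 at Olig2 through 13 at Foxd3, 12 at Evx2 and 10 at Irx3 to 3 at Hoxa2, where the GC content was 41.0%.

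RefSeq promoters of 300 bases (250 before and 50 after the start) could be matched to 181 of the 292 members. Their median GC content was 63.0%, against 66.3% in 497 matched promoters bound above the threshold in ESC only and 56.3% in all 16636 matched promoters. The median number of CG dinucleotides was 20 in the members, 25 in the windows bound in ESC only and 13 in all matched promoters. Promoters with 5 or fewer CG dinucleotides made up 9 of the 181, against 21 of the 497 bound in ESC only and 5451 of all 16636. The letters CGCG, which read the same on both strands, were found in 76.8% of the members' promoters, against 82.1% of those bound in ESC only and 49.1% of all. CCAAT, searched on both strands, was in 49.7% of the members' promoters, against 38.6% and 38.8% in the other 2 sets, and TATAAA, also on both strands, was in 12.7%, against 6.24% and 13.2%. These shares are descriptions of the letters in the window and were not tested.

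**Figure D1:**
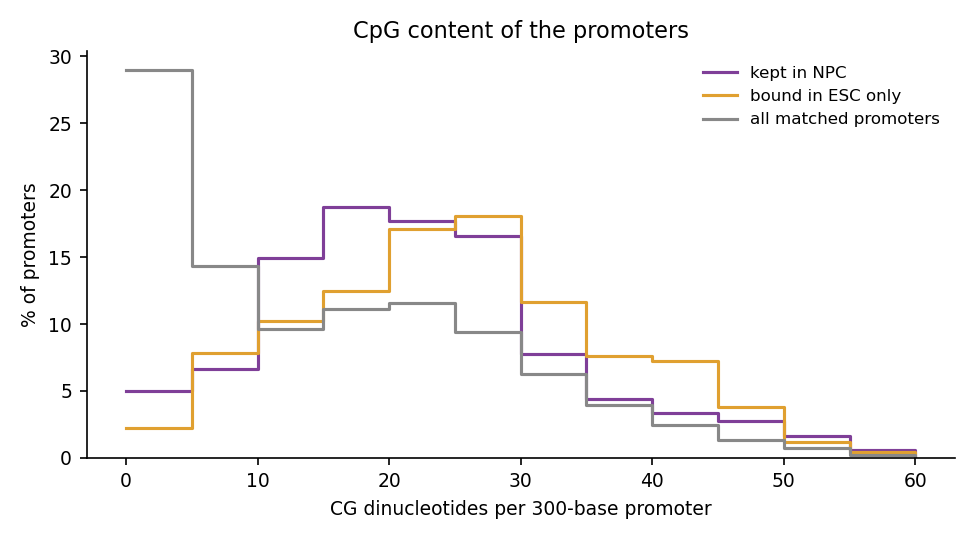
CG dinucleotides per 300-base promoter (horizontal axis) against the share of promoters in each bin of 5 (vertical axis, percent), for the members (kept in NPC), the windows bound in ESC only and all matched promoters. The members and the windows bound in ESC only both lie to the right of all promoters, with medians of 20, 25 and 13.

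The members were a subset of a larger ESC set. In ESC, 1108 windows reached 100 CPM of SUZ12 in both libraries, and 26.4% of them also did so in both NPC libraries. In NPC, 310 windows reached the threshold in both libraries, and 94.2% of them were members, which left 18 windows above it in NPC only. Just inside the threshold, by their lowest SUZ12 value and leaving out clone and microRNA names, were Cyp1b1 and Neurog1 at 100.3 CPM, followed by Tmem132e and Fgf3, tied at 100.9 CPM. Just outside were Wnt10b, Rax and Tfap2e, each at 98.7 CPM in 1 NPC library. At 100 CPM the SUZ12 libraries held between 44.9 and 85.8 counts, so neighbours on either side of the threshold differed by about 1 read.

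By RefSeq class 234 members were protein-coding genes, 44 were long non-coding RNAs, 6 were microRNAs, 3 were antisense RNAs and 1 was a pseudogene, and 4 could not be matched. Members clustered along the chromosomes. Counting members within 50 kb of each other as 1 locus gave 200 loci, of which 46 held more than 1 member and 138 members between them. The largest was the HoxA cluster with Evx1, which held 18 members, followed by HoxB and HoxC with 10 each, HoxD with Evx2 with 8, and the Fendrr, Foxf1, Foxc2 and Foxl1 locus with 4. Windows of 108 members overlapped another window, so close neighbours share reads and are not independent. Chromosome 11 held the most members, 46 or 2.50% of its windows, chromosome 2 held 39, and chromosome X held 0 of its 1066 windows.

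The SUZ12 values that chose the members were also set against IgG, which is a description and no separate test, since the rule favours windows above IgG. SUZ12 was at least 2 times IgG in both libraries at 256 members in NPC and at 281 in ESC, where 1.74% of all windows were in NPC and 5.53% in ESC, and in all 4 libraries at 255. Of the 37 others, 4 had IgG itself at or above 100 CPM in both cell types: Pisd-ps2, Hjurp, Mroh2a and Trpm8, the last 3 of which lie in 1 locus on chromosome 1. Pisd-ps2, a pseudogene, had 277 and 309.8 CPM of SUZ12 in NPC and 184 and 211 CPM in ESC, beside 314 CPM of IgG in NPC and 328 CPM in ESC. At these 4 windows the SUZ12 values do not stand above the antibody control, and they met the rule without meeting the description of a bound promoter. Over the 255 members with SUZ12 above IgG in every library, the tests described below gave 102 falls of JARID2, 1 fall of MTF2, 20 rises of H3K27me3, and 156 falls and 46 rises of H3K4me3.

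H3K4me3 at marker genes was set against the cell type labels. In NPC the 7 progenitor markers (Sox1, Pax6, Meis1, Fabp7, Nkx2-2, Ptch1 and Pou3f2) summed to 1082 and 1147 CPM. Their sums in ESC were 370 and 356 CPM, and all 7 rose. Olig2, a progenitor factor outside this list and itself a member, went the other way. Its H3K4me3 was 62.8 and 66.8 CPM in NPC, against 92.2 and 90.8 CPM in ESC (edgeR log2 change -0.50, adjusted p 2.9e-08). The 7 ESC markers summed to 171 and 173 CPM in NPC, against 1132 and 1195 CPM in ESC, and 6 of them fell. The 3 neuron markers (Elavl4, Tubb3 and Dcx) also rose, with sums of 135 and 158 CPM in NPC and 41.0 and 43.1 CPM in ESC. Elavl4 gave the largest part in NPC, with means of 83.6 CPM there and 3.00 CPM in ESC. Tubb3 averaged 56.4 CPM in NPC and 38.1 CPM in ESC, and Dcx 6.59 and 0.948 CPM. Whether the NPC cultures held neurons, and what part these had in the results below, was not tested. Markers of mesoderm, endoderm, trophectoderm and glia (2 each) summed to between 9.26 and 56.5 CPM in the NPC libraries, against between 20.2 and 122 CPM in the ESC libraries. The 2 markers of primed epiblast (Fgf5 and Otx2) summed to 57.0 and 61.7 CPM in NPC, against 47.1 and 38.9 CPM in ESC, and Fgf5 rose. Among all these markers Cdx2, Eomes, Gata6 and Otx2 were themselves members. Library totals over the windows ran from 298458 counts for IgG in ESC to 8425292 for H3K4me3 in NPC.

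SUZ12 stayed above the threshold at the members while lying lower in NPC. The median over members was 165 and 164 CPM in the NPC libraries, against 350 and 302 CPM in the ESC libraries, and the median over all windows was 38.6 and 37.9 CPM in NPC and 29.1 and 31.5 CPM in ESC. The NPC mean was below the ESC mean at 281 of 292 members, and both NPC libraries lay below both ESC libraries at 272 and above them at 4, where 16.0% and 42.4% of all windows did so. The median member had 54.1% of its ESC level in NPC, a log2 ratio of -0.89 with quartiles of -1.08 and -0.58, against a median of 0.33 over all windows. A lower SUZ12 level in NPC was not particular to the members. The 816 windows bound in ESC only, chosen for missing the NPC threshold, had a median of 42.6%, a log2 ratio of -1.23. Both NPC libraries lay below both ESC libraries at 810 of them. Since CPM is a share of a library, and Drosophila spike-in counts were not used here, a change common to all windows was not measured. In these bulk libraries, fewer cells with a bound window and less binding per cell cannot be told apart.

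**Figure D2:**
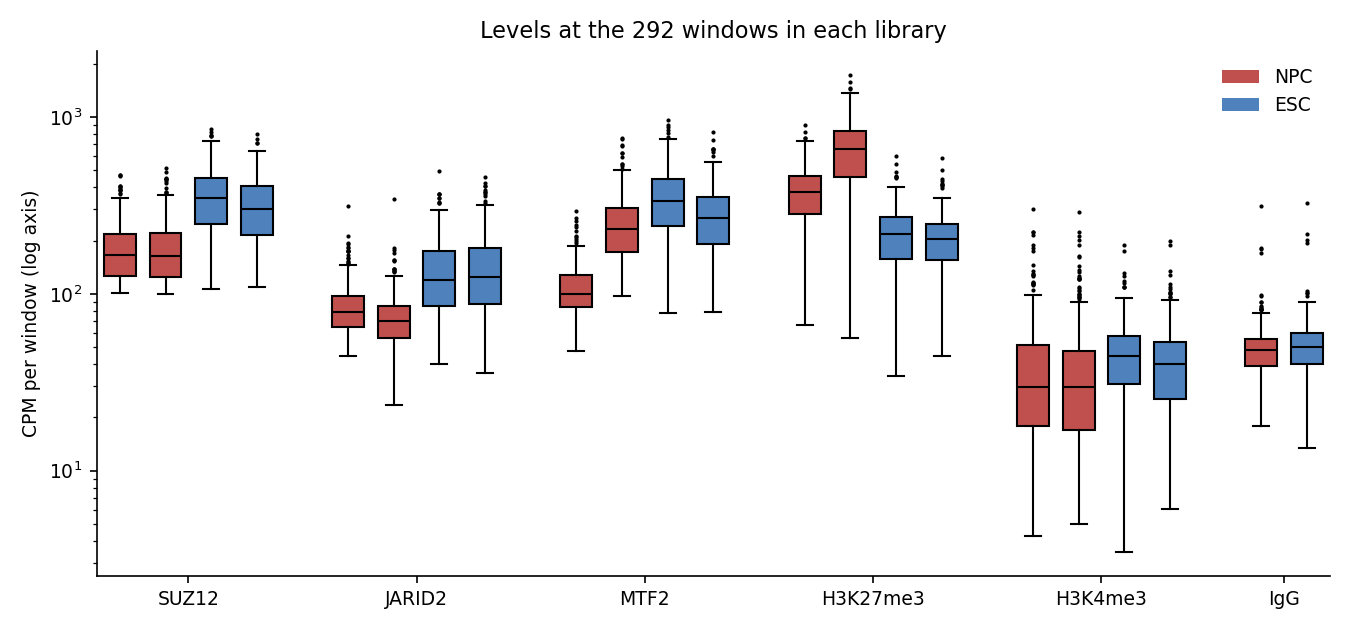
CPM per window on a log axis at the 292 members in each library, NPC in red to the left of ESC in blue, for the 5 antibodies and IgG. Boxes span the quartiles with the median as a line, whiskers reach 1.5 times the interquartile range and points are members beyond it. SUZ12 has medians of 165 and 164 CPM in NPC and 350 and 302 CPM in ESC, and H3K27me3 has 375 and 662 CPM in NPC and 217 and 204 CPM in ESC.

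Membership followed the SUZ12 level in ESC. Of 436 ESC windows with a mean of 100 to 150 CPM, 11 (2.52%) were members. The share was 13.2% at 150 to 200 CPM, 39.9% at 200 to 300 CPM and 80.1% at 300 to 500 CPM. At 500 CPM or more it was 92.2%, or 47 of 51 windows. The threshold was the same in both cell types, so this gradient is in part fixed by the rule, and it is given because the lists below start from different ESC levels.

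The 8 members whose lowest SUZ12 value was highest, leaving out genes with clone names only, were all homeobox genes or the paired-domain gene Pax2. Hoxb9, which helps set thoracic identity, had 472 and 486 CPM in NPC and 562 and 491 CPM in ESC. Its NPC libraries were below both ESC libraries, but by less than the ESC libraries differed from each other. Pax2, a regulator of the midbrain-hindbrain boundary and kidney, had 468 and 515 CPM in NPC, against 859 and 713 CPM in ESC. Evx2, at the end of the HoxD cluster, had 461 and 446 CPM in NPC, against 792 and 626 CPM in ESC. Nkx2-1, a regulator of ventral forebrain and thyroid, had 406 and 450.2 CPM in NPC, against 817 and 798 CPM in ESC. At Pax2, Evx2 and Nkx2-1 the cell types did not overlap. Otx1, Lbx1, Hoxb6 and Hoxb5 completed the 8, with NPC values between 389 and 448 CPM and ESC values between 478 and 781 CPM.

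The 5 lowest and 5 highest NPC to ESC ratios of SUZ12 were taken among genes with more than a clone name. Nkx6-1, a homeobox factor of ventral neural tube progenitors, had 148 and 154 CPM of SUZ12 in NPC, against 696 and 714 CPM in ESC, a log2 ratio of -2.22. Zfp503 (-2.30), Irx5 (-2.29), Pou3f3 (-2.15) and Fgf9 (-1.86) were the other 4 at the low end, each with both NPC libraries below both ESC libraries. The highest ratios were at Pisd-ps2 (0.57), whose SUZ12 did not exceed its IgG, and at Hoxb13 (0.45). Hoxb13, the most 5′ gene of HoxB, had 210.4 and 203 CPM in NPC and 159.7 and 143 CPM in ESC, without overlap. Cilp2 (0.34), Hjurp (0.28) and Nefh (0.13) followed, and Hjurp is among the 4 windows with high IgG.

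Members were counted by gene list, and the share of each list kept is again a description of the rule. Of the 37 Hox genes bound in ESC, 34 were members. HoxA kept 10 of 10, HoxB kept 9 of 10, HoxC kept 8 of 9 and HoxD kept 7 of 8. The other 3 were Hoxb1, Hoxc4 and Hoxd1. Homeobox genes of the neural tube and brain were kept at 54 of 73, Forkhead factors at 15 of 19, zinc finger developmental factors at 13 of 21, and mesoderm and heart factors, such as Gata2 and Nkx2-3, at 18 of 32. Endoderm and gut factors, such as Cdx2 and Onecut2, were kept at 5 of 9, neural bHLH factors at 6 of 16, and POU and Sox factors at 3 of 12.

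Genes for signals and for neuronal function were among the remaining lists. WNT ligands and antagonists were kept at 5 of 15 (Wnt1, Wnt3a, Wnt6, Wnt7b and Wnt9a), Hedgehog and retinoic acid genes at 3 of 7 (Aldh1a2, Cyp26a1 and Ihh), FGF ligands at 2 of 6 (Fgf3 and Fgf9), and BMP and TGF-beta genes at 1 of 12 (Inhbb). Axon guidance and adhesion genes were kept at 0 of 21 and neuronal ion channels and receptors at 0 of 19. Cell cycle inhibitors were kept at 0 of 2, and naive pluripotency genes at 1 of 3 (Gbx2). ESC levels differed among these lists, with a median of 388 CPM for the Hox genes, 183 CPM for axon guidance and 164 CPM for ion channels. Within windows at 200 CPM or more in ESC, 30 of 31 Hox genes, 50 of 58 neural homeobox genes, 18 of 20 mesoderm and heart factors and 0 of 9 axon guidance genes were kept, against 245 of 400 windows in all. In all, 162 members belonged to a list and 130 to none. These shares were not tested against each other.

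Some landmark genes of neural progenitors were bound in ESC and were not members. Sox1, an early neural factor, averaged 93.2 ± 19.5 CPM in NPC and 583 ± 29.2 CPM in ESC (SD, n = 2 each). Nkx2-2, which marks the most ventral progenitors, averaged 98.3 ± 9.75 CPM in NPC and 252 ± 3.03 CPM in ESC, and Pax6 averaged 80.7 ± 19.5 CPM in NPC and 191 ± 2.56 CPM in ESC. Olig2, the bHLH factor of motor neuron progenitors, was a member, with 225 and 221 CPM in NPC and 295 and 281 CPM in ESC.

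**Figure D3:**
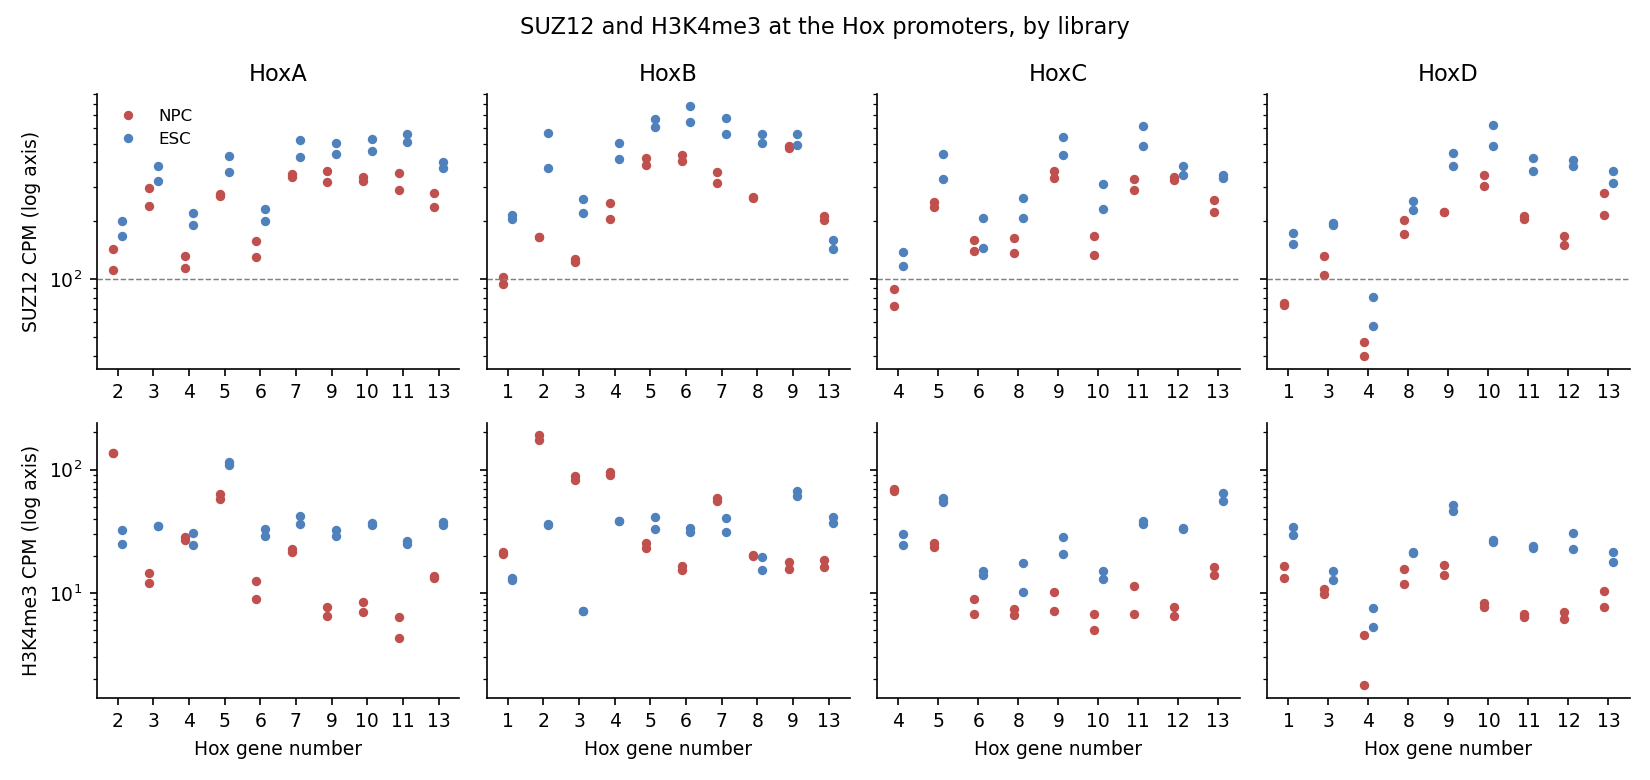
SUZ12 CPM (upper row) and H3K4me3 CPM (lower row), both on log axes, at Hox genes by their number in the cluster, with NPC (red, left) and ESC (blue, right) libraries as single points. The dashed line is the 100 CPM threshold. SUZ12 in NPC stays above the line in both libraries at the 34 members, and H3K4me3 lies higher in NPC at Hoxa2, Hoxb2, Hoxb3, Hoxb4 and Hoxb7 but lower at most genes of high number.

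JARID2, the PRC2.2 subunit, fell at the members. With edgeR's quasi-likelihood test and Benjamini-Hochberg adjustment over all windows at 0.05, it fell at 109 of 292 members (37.3%) and rose at 0, while 0.75% of all tested windows fell and 0.0792% rose. At an unadjusted p below 0.05 the members gave 182 falls and 0 rises, where 4.92% of all windows fell and 4.22% rose. DESeq2 gave 77 falls and 0 rises. The median log2 change was -0.74 in the members, -0.22 in the 816 windows bound in ESC only, of which 45 (5.51%) fell, and 0.01 in all windows. Members thus made up 109 of the 161 falls (67.7%). Median levels were 79.2 and 70.7 CPM in NPC, against 119.5 and 124 CPM in ESC, and both NPC libraries lay below both ESC libraries at 220 members and above them at 6, where 17.9% and 19.8% of all windows did so. In ESC, JARID2 was at least 2 times IgG in both libraries at 65 of the 816 windows bound in ESC only. The members gave 160 of 292, and all windows 1.73%. Median folds over IgG in ESC were 1.19 and 1.21 in the windows bound in ESC only and 2.27 and 2.49 in the members. The windows bound in ESC only thus started close to IgG, which limits how far their JARID2 could fall.

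The largest falls were at developmental transcription factors. Nkx2-1 had 144 and 55.9 CPM of JARID2 in NPC, against 332 and 376 CPM in ESC (log2 change -1.75, SE 0.22, adjusted p 5.1e-09). Hoxd11, which patterns the limb and the lower trunk, had 108 and 73.6 CPM in NPC, against 289 and 319 CPM in ESC (log2 change -1.73, SE 0.22, adjusted p 5.1e-09). Pax7, a regulator of dorsal neural tube, neural crest and muscle stem cells, had 77.2 and 91.3 CPM in NPC, against 289 and 231 CPM in ESC (log2 change -1.66, SE 0.22, adjusted p 4.8e-08). The cell types did not overlap at these 3 genes, and the NPC libraries of Nkx2-1 differed from each other by more than 2-fold. The edgeR SE draws on the spread over all tested windows, and was 0.22 at each of the 3. DESeq2 gave Nkx2-1 a log2 change of -1.82 with an adjusted p of 0.039. It gave Hoxd11 -1.74 with an adjusted p of 3.2e-06. Hoxc11 (-1.68) and Prdm6 (-1.82) were the other 2 of the 5 largest falls, and at Evx2, whose promoter is printed above, JARID2 fell by 1.44 on the log2 scale.

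By list, JARID2 fell at 21 of the 34 Hox members, at 24 of 54 neural homeobox members, at 10 of 13 zinc finger factors, at 7 of 18 mesoderm and heart factors and at 6 of 15 Forkhead factors. No member of the bHLH, endoderm, WNT or Hedgehog and retinoic acid lists passed the test. Hoxb9, at the top of the SUZ12 order, did not pass either: its JARID2 was 175 and 135 CPM in NPC and 133 and 155 CPM in ESC, and the cell types overlapped. JARID2 was close to background at many members, being at least 2 times IgG in both libraries at 49 members in NPC and 160 in ESC, where 0.531% of all windows were in NPC and 1.73% in ESC, and without the second NPC library the NPC count was 89. Leaving out the second ESC library reduced the falls to 44, and leaving out the first reduced them to 70. Over all windows the spread of the 2 NPC libraries was that of counting error alone (a chi-square of 0.998 per degree of freedom), as it nearly was for the 2 ESC libraries (1.02). They were kept as 2 because the labels list them as replicates, and as 1 summed library they gave 122 falls.

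MTF2, the PRC2.1 subunit, was lower in NPC at nearly all members, but passed the test at 1 of them. The log2 change was below 0 at 287 of 292 members, with a median of -1.02, against -1.47 in the windows bound in ESC only and 0.07 in all windows. By edgeR 1 member fell and 0 rose, where 8.89% of all windows fell and 3.28% rose, and at an unadjusted p below 0.05 there were 25 falls and 0 rises, where 16.0% of all windows fell and 11.6% rose. Median levels at the members were 100.1 and 231 CPM in the NPC libraries, against 333 and 268 CPM in ESC. Both NPC libraries lay below both ESC libraries at 182 members, where 16.3% of all windows did so. At the windows bound in ESC only, 453 of 816 (55.5%) fell.

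Irx3, a homeobox factor of neural tube progenitors, was the member that passed. It had 61.5 and 104 CPM of MTF2 in NPC, against 411 and 357 CPM in ESC, without overlap (log2 change -2.47, SE 0.90, adjusted p 0.049). With TMM factors from background windows it no longer passed. Its neighbour Irx5, 68.3 and 157 CPM in NPC and 583 and 514 CPM in ESC, also did not overlap but did not pass (adjusted p 0.13). Pax2 had 198 and 760.0 CPM in NPC and 878 and 662 CPM in ESC, so that its second NPC library lay within the ESC range. DESeq2 called 45 falls and 0 rises. Without the second NPC library edgeR called 34 falls, and without any 1 of the other 3 libraries it called 0. A minimum count of 30 gave 2 falls and 6 rises. MTF2 was at least 2 times IgG in both libraries at 158 members in NPC and 282 in ESC, where 1.15% of all windows were in NPC and 6.27% in ESC, and without the first NPC library the NPC count was 276.

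Whether JARID2 and MTF2 changed by different amounts was tested directly as an interaction over their 8 libraries. No member passed in either direction by edgeR or DESeq2, where 2.78% of all windows passed with JARID2 moving above MTF2 and 0.662% with JARID2 moving below it. At an unadjusted p below 0.05, 13 members lay in the first direction and 1 in the second, where 12.4% and 7.02% of all windows did. The median difference (JARID2 change minus MTF2 change) was 0.35 on the log2 scale in the members and 0.01 in all windows. It was 1.29 in the windows bound in ESC only, where 156 of 816 passed. With library totals the median difference was 0.04 in the members and -0.32 in all windows. In the windows bound in ESC only, JARID2 was close to IgG in ESC, which limits how far it could fall. Without the second NPC library of MTF2, 52 members passed. The result therefore does not show that the 2 subunits changed alike.

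**Figure D4:**
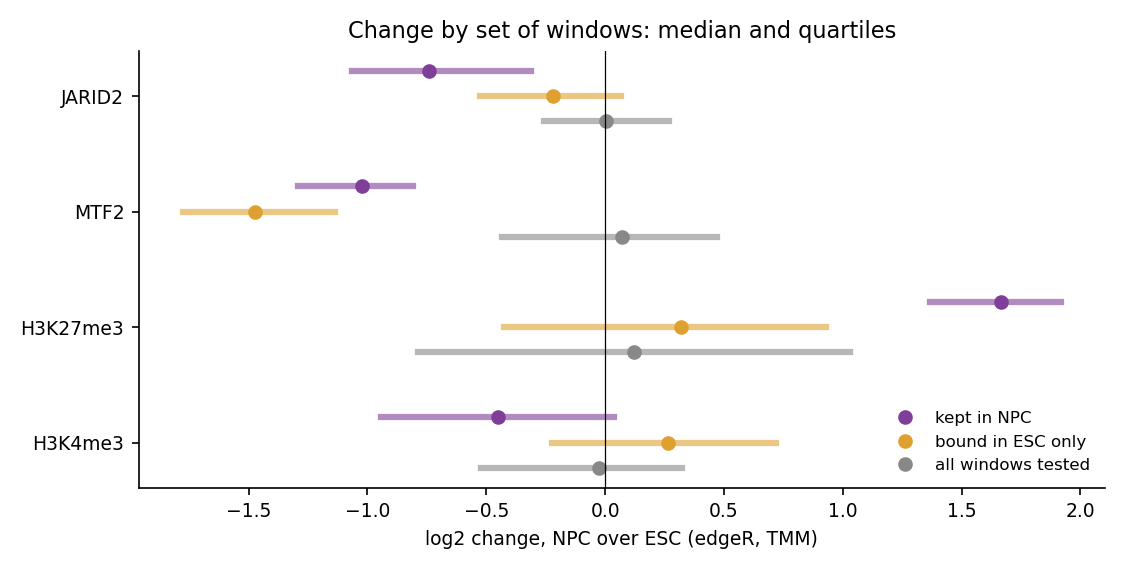
Median (point) and quartiles (bar) of the edgeR log2 change, NPC over ESC, for 4 antibodies in the members (kept in NPC), in the windows bound in ESC only and in all windows tested. The members have the lower JARID2 median (-0.74 against -0.22), the higher H3K27me3 median (1.67 against 0.32) and the lower H3K4me3 median (-0.45 against 0.27) of the 2 bound sets. JARID2 at the windows bound in ESC only was close to IgG in ESC, with median folds of 1.19 and 1.21.

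H3K27me3, the product of PRC2, was higher in NPC at nearly all members. Median levels were 375 and 662 CPM in the NPC libraries, against 217 and 204 CPM in ESC, and both NPC libraries lay above both ESC libraries at 269 of 292 members, where 29.6% of all windows did so. The median log2 change was 1.67, against 0.32 in the windows bound in ESC only and 0.12 in all windows. The edgeR call was made at 28 members (9.59%), all rises, with 0 falls, where 22.9% of all windows rose and 23.5% fell, so the share called was below the background although the members' changes were larger. At an unadjusted p below 0.05 there were 46 rises and 0 falls, where 27.2% of all windows rose and 26.3% fell. DESeq2 gave 155 rises and 1 fall. The NPC libraries stood further apart than counting error gives (a chi-square of 6.67 per degree of freedom), and the count of rises was 285 without the first NPC library, 123 without the second, and 0 without either ESC library. Scaling by library totals gave 166 rises and 2 falls, with a median log2 change of 1.36 in the members and -0.05 in all windows. A minimum count of 30 gave 271 rises.

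The 5 largest rises that passed were at Foxd3, Sp5, Olig2, Gsc and Inhbb. Foxd3, a factor of neural crest and pluripotent epiblast, had 283 and 543 CPM of H3K27me3 in NPC, against 54.9 and 44.8 CPM in ESC (log2 change 3.36, SE 0.97, adjusted p 0.0024). Sp5, a target of WNT signalling, had 356 and 712 CPM in NPC, against 88.0 and 64.9 CPM in ESC (log2 change 3.12, SE 1.09, adjusted p 0.013). Olig2 had 392 and 710.3 CPM in NPC, against 78.7 and 92.6 CPM in ESC (log2 change 3.01, SE 1.10, adjusted p 0.018). None of these overlapped between cell types. Their SUZ12 log2 ratios, from CPM without TMM scaling, were 0.01 at Foxd3, 0.04 at Sp5 and -0.37 at Olig2. At Olig2 both NPC libraries of SUZ12 lay below both ESC libraries. The SUZ12 TMM factors were 1.09 in both NPC libraries, against 0.902 and 0.933 in ESC, so TMM-scaled ratios would be lower.

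Gsc, a homeobox gene of the gastrula organiser, and Inhbb, a subunit of activin B, had log2 changes of 2.89 and 2.85. The other members that passed included Gbx2 (2.83), a gene of the naive ESC and later of the anterior hindbrain, Fgf3 (2.33), a ligand of the FGF family, and Bmi1 (1.67), a subunit of the PRC1 complex. Gbx2 had 186 and 315 CPM in NPC, against 38.3 and 49.4 CPM in ESC. No Hox member passed, although the median log2 change was 2.03 in HoxA, 1.48 in HoxB, 1.85 in HoxC and 1.88 in HoxD. At Hoxb9, for example, H3K27me3 was 758 and 1586 CPM in NPC, against 226 and 216 CPM in ESC (log2 change 2.74, SE 1.59, adjusted p 0.14). The groups did not overlap there, but the NPC libraries were about 2-fold apart. With library totals 19 of the 34 Hox members rose, and with DESeq2 24 did.

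At 4 members the TMM-scaled edgeR change of H3K27me3 was below 0: Baiap2, Irx5, Nkx6-1 and Trpm8. By mean CPM, without TMM scaling, more members were not higher in NPC. H3K27me3 was higher there at 47 of the 55 members where H3K4me3 rose by the test below. It was higher at 170 of the 171 where H3K4me3 fell and at 65 of the 66 others. Nkx6-1 had 121 and 178 CPM in NPC and 240.3 and 216 CPM in ESC, without overlap, and did not pass (adjusted p 0.73). Irx5 had 69.8 and 94.3 CPM in NPC and 117 and 117 CPM in ESC and did not pass either. Both were among the 5 members with the lowest SUZ12 ratio.

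H3K4me3 moved in both directions at the members, with more falls than rises. It fell at 171 of 292 members (58.6%) and rose at 55 (18.8%) by edgeR, where 29.2% of all windows fell and 26.7% rose. DESeq2 gave 131 falls and 41 rises. Hjurp and Mroh2a, 2 of the windows with high IgG, were among the rises. In the windows bound in ESC only the order was the opposite, with 192 falls (23.5%) and 423 rises (51.8%). The median log2 change was -0.45 in the members, 0.27 in the windows bound in ESC only and -0.02 in all windows. Median levels at the members were 29.6 and 29.7 CPM in NPC, against 44.8 and 40.2 CPM in ESC. Both NPC libraries lay below both ESC libraries at 185 members and above them at 71, where 31.2% and 35.6% of all windows did so.

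The falls included mesodermal and posterior genes. Hand1, a bHLH factor of heart and trophoblast, had 14.1 and 10.2 CPM of H3K4me3 in NPC, against 59.0 and 48.3 CPM in ESC (log2 change -2.28, SE 0.14, adjusted p 1.6e-60). Tlx2, a homeobox factor of enteric neurons, had 15.6 and 16.7 CPM in NPC, against 76.7 and 72.1 CPM in ESC (log2 change -2.20, SE 0.11, adjusted p 1.2e-80). Hoxa10, which patterns the posterior axis, had 7.05 and 8.43 CPM in NPC, against 37.2 and 35.3 CPM in ESC (log2 change -2.20, SE 0.17, adjusted p 3.2e-36). None of these overlapped between cell types. Hoxc12 (-2.28) and Hoxc11 (-2.21) were the other 2 of the 5 largest falls, and at all 5 the fitted H3K27me3 change was between 1.72 and 2.42 on the log2 scale without passing the test.

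The rises were led by anterior Hox genes. Hoxb3, a hindbrain Hox gene, had 83.0 and 89.3 CPM of H3K4me3 in NPC, against 7.12 and 7.18 CPM in ESC (log2 change 3.59, SE 0.14, adjusted p 5.4e-150). Hoxb2 had 175 and 189.5 CPM in NPC, against 35.8 and 36.2 CPM in ESC (log2 change 2.33, SE 0.09, adjusted p 1.7e-131). Neither gene overlapped between cell types. Hoxa2, whose window overlaps that of the antisense transcript Hoxaas2, had 135 and 137 CPM in NPC, against 32.4 and 25.1 CPM in ESC (log2 change 2.18, SE 0.10, adjusted p 1.9e-109). Hoxaas2 itself also changed by 2.18, and the reads that the overlapping windows share cannot be told apart.

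Over the 34 Hox members H3K4me3 rose at 5 (Hoxa2, Hoxb2, Hoxb3, Hoxb4 and Hoxb7) and fell at 26, and the 5 rises held with library totals, with TMM factors from background windows and with DESeq2. HoxA had 1 rise and 8 falls, HoxB had 4 rises and 4 falls, HoxC had 8 falls among 8 members, and HoxD had 6 falls among 7. Among the rising genes Hoxb2 had 165 and 165 CPM of SUZ12 in NPC, against 564 and 372 CPM in ESC, and Hoxb3 had 127 and 123 CPM in NPC, against 258 and 220.3 CPM in ESC. At Hoxa10, where H3K4me3 fell, SUZ12 was 335 and 321 CPM in NPC, against 530.5 and 455 CPM in ESC.

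Outside the Hox clusters the rises were spread over several lists. Neural homeobox genes had 8 rises and 34 falls among 54, and the rises included Nkx6-1, Irx3, Irx5 and Lhx1. Nkx6-1 had 214 and 212 CPM of H3K4me3 in NPC, against 52.8 and 49.2 CPM in ESC (log2 change 2.03, SE 0.09). Zinc finger factors had 5 rises (Ebf1, Ebf2, Egr3, Sall3 and Zfp503) and 6 falls among 13, endoderm factors had 3 rises (Foxa1, Onecut1 and Onecut2) and 2 falls among 5, and mesoderm and heart factors had 1 rise (Gata3) and 13 falls among 18. Neural bHLH genes had 5 falls and no rise among 6, and WNT genes had 4 falls and no rise among 5.

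Polycomb genes were themselves among the members. Cbx8, a chromodomain subunit of the PRC1 complex, and Bmi1, another PRC1 subunit, were members. H3K4me3 rose at both, by 0.57 at Cbx8 and 0.55 at Bmi1 on the log2 scale. Cbx8 had 328 and 395 CPM of SUZ12 in NPC, against 729.9 and 635 CPM in ESC, and its H3K27me3 was 326 and 593 CPM in NPC, against 235 and 239 CPM in ESC. H3K27me3 did not pass the test at Cbx8 and rose at Bmi1, with 142 and 201 CPM in NPC, against 61.1 and 69.5 CPM in ESC.

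Larger H3K27me3 changes went with lower H3K4me3 changes across members. Over the 292 members the log2 changes of H3K27me3 and H3K4me3 had a Pearson r of -0.68 and a Spearman rho of -0.63, and r was -0.67 over the 184 members that overlap no other window. This is a description across windows that share libraries and, in part, reads. At the 171 members where H3K4me3 fell, the median H3K27me3 level was 574 CPM in NPC, against 212 CPM in ESC, and both NPC libraries lay above both ESC libraries at 170 of them. At the 55 where H3K4me3 rose, it was 299 CPM in NPC, against 186 CPM in ESC, with both NPC libraries above at 35. SUZ12 was 183 CPM in NPC, against 336 CPM in ESC, in the first class, and 136 CPM in NPC, against 373 CPM in ESC, in the second.

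**Figure D5:**
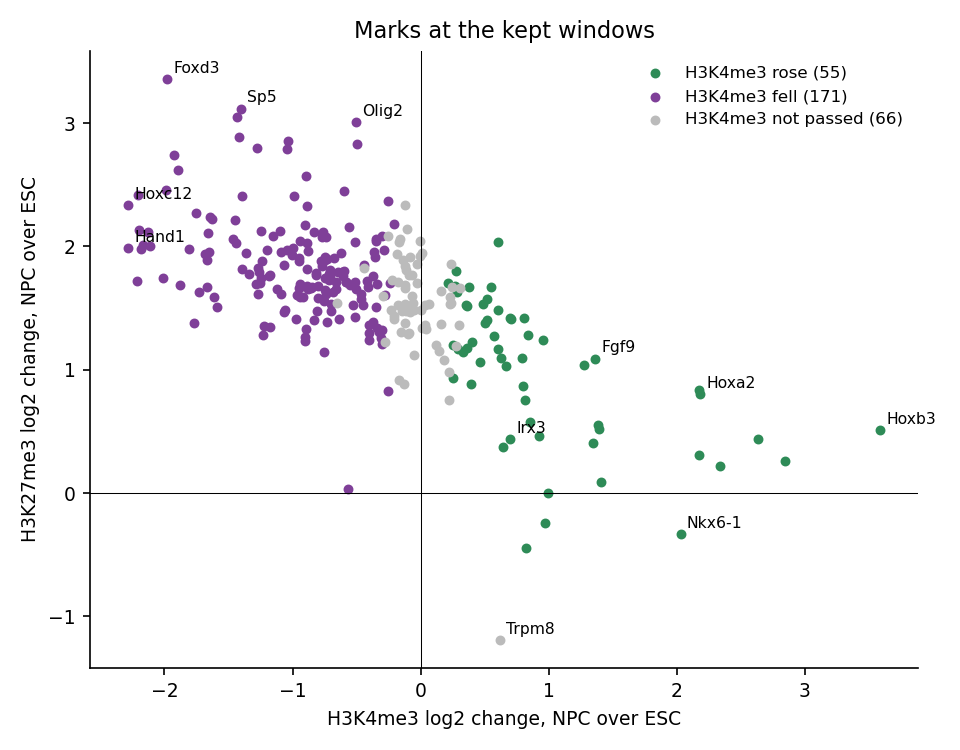
Log2 change of H3K4me3 (horizontal) and of H3K27me3 (vertical), NPC over ESC, at the 292 members, coloured by the edgeR call for H3K4me3: 55 rose, 171 fell and 66 did not pass. Most members lie in the upper left, and Hoxb3, with the largest H3K4me3 rise, has an H3K27me3 change of 0.51.

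Levels of SUZ12 and MTF2 ran together across members, with r of 0.89 in NPC and 0.92 in ESC, and their changes had r of 0.88. SUZ12 and JARID2 had r of 0.64 in NPC and 0.62 in ESC, and 0.33 for the changes. SUZ12 and H3K27me3 changes had r of 0.55. These values are over the same 292 windows, whose SUZ12 range the rule truncates.

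When each mark was set against IgG, most members had H3K27me3 alone at or above 2 times IgG in both cell types. H3K27me3 was at least 2 times IgG in both libraries at 282 members in NPC and 251 in ESC, where 7.34% of all windows were in NPC and 10.2% in ESC. H3K4me3 met the same rule at 14 members in NPC and 12 in ESC, where 13.4% of all windows were in NPC and 13.6% in ESC. Both marks were above IgG at 10 members in NPC and 9 in ESC, where 0.298% and 0.139% of all windows were, and 234 members had H3K27me3 alone in both cell types, as 4.26% of all windows did. Another 30 had neither mark above IgG in ESC and H3K27me3 alone in NPC, as 2.47% of all windows did, and Bcl11b, Bmi1 and Cilp2 were among them. The members' H3K4me3 medians lay under those of IgG, which were 47.9 CPM in NPC and 50.3 CPM in ESC, and since both are shares of libraries with different profiles, a value under IgG does not show that the mark was absent. The housekeeping gene Actb also missed the rule, with mean H3K4me3 folds over IgG of 1.09 in NPC and 1.74 in ESC. In ESC the members' H3K4me3 medians of 44.8 and 40.2 CPM lay above the all-window medians of 26.3 and 24.3 CPM. In NPC they were 29.6 and 29.7 CPM, against 23.9 and 23.1 CPM. The rule therefore does not show which members lacked H3K4me3.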

How the data were processed

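CUT&RUN counts over 24467 TSS windows of 5000 bp in 22 libraries were used as deposited. The authors deposited whole-number counts per window, made with Bowtie2 2.3.4.3 and Picard 2.19 on mm10, per the submitters' processing notes. How reads were counted and duplicates handled is "not given in the sources used here", and spike-in counts were not used here.

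CPM was each count divided by its library's sum over the windows. NPC and ESC were compared per antibody with edgeR 4.0.16 (quasi-likelihood, TMM scaling, limma 3.58.1, R 4.3.3) on all windows that passed a minimum count of 10, with Benjamini-Hochberg adjusted p at 0.05. JARID2 and MTF2 were compared by an interaction term. DESeq2 1.42.0, other scalings and filters, and leaving out libraries were alternatives. The edgeR script was tested on simulated data. Folds over IgG added 2 counts to each value and carry no test. Intervals are not given. With 2 libraries per group, the edgeR SE of a window draws on the spread over all tested windows as well as on its own.

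The members and lists were chosen with earlier results of these data known. Genes were named by rank: the 8 highest and those nearest the threshold in SUZ12, the 5 largest changes per antibody among those that passed without overlap, the 5 extreme SUZ12 ratios, leading list members, all Hox members and fixed landmarks, with clone-named genes left out. Some genes that this rule names are not reported here. Further genes listed beside a count were chosen after their values were seen. So were Hoxb9, Pax2, Irx5, Nkx6-1, Hoxb2, Hoxb3, Hoxa10, Cbx8, Bmi1 and Olig2 where an antibody other than the ranking one is described. Promoters were matched by symbol to a RefSeq table (GRCm38.p6) within 100 bp of the window centre.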

Additional observations from a re-analysis of the deposited data

How the results depend on the processing

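Across the alternatives run, 133 values of the main counts stayed within 1.5 times of the reported one and 53 did not. For the single genes, 62 values kept direction and call, 1 kept direction only (MTF2 at Irx3, -2.57 with TMM factors from background windows) and 0 reversed. The cause was not tested for any of these. JARID2 falls ranged from 44 to 101 when 1 library was left out. MTF2 rises were 1 with library totals, 6 with a minimum count of 30 and 1 with the crossed replicate block. MTF2 falls were 4 with library totals, 0 with background TMM, 0 with no filter, 2 with a minimum count of 30, 45 with DESeq2, and 0 to 34 with 1 library left out. H3K27me3 rises were 166 with library totals, 15 with background TMM, 271 with a minimum count of 30, 155 with DESeq2, and 0 to 285 with 1 library left out. H3K27me3 falls were 2 with library totals, 1 with DESeq2, and 0 to 9 with 1 library left out. Members with JARID2 above MTF2 numbered 0 to 52 with 1 library left out. Replicate numbers did not pair the libraries, with correlations of same-numbered deviations of -0.21 to 0.01. With the replicate block, 82 members fell for JARID2, 0 for MTF2, 1 rose for H3K27me3, and 53 rose and 169 fell for H3K4me3. The crossed numbers, the summed NPC JARID2 libraries and the restriction to members above IgG were chosen after seeing the data. Crossing the numbers gave 108 MTF2 falls and 16 H3K27me3 rises.

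Restricting to the 184 members that overlap no other window has fewer windows by construction: JARID2 fell at 60, and H3K4me3 rose at 32 and fell at 113. There, JARID2 was above IgG at 28 in NPC and 86 in ESC, MTF2 at 91 and 176, H3K27me3 at 177 and 151, and H3K4me3 in NPC at 7. At 4 times IgG, JARID2 was above it at 0 in NPC and 35 in ESC, MTF2 in NPC at 16, H3K27me3 in ESC at 115, and H3K4me3 at 0 in NPC and 0 in ESC. With IgG summed over both cell types, H3K4me3 in ESC was above it at 6. With 1 library left out, JARID2 in NPC was above IgG at 62 to 89 members and MTF2 in NPC at 158 to 276. The rule itself took in 1793 windows at 50 CPM and 77 at 200 CPM. Depth limits the SUZ12 values near the threshold, where 100 CPM is 44.9 to 85.8 counts.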

Other observations

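The 18 windows at or above the SUZ12 threshold in both NPC libraries but not both ESC libraries are a small set beside the members. By edgeR H3K27me3 rose at 18 of 18 of them and H3K4me3 fell at 17, where 22.9% and 29.2% of all windows did so. JARID2 rose at 3 and MTF2 at 5, where 0.0792% and 3.28% of all windows did so. SUZ12 was at least 2 times IgG in both NPC libraries at 9 of the 18. These windows were chosen on SUZ12 and are given as counts only.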
